A study of Homo sapiens with 24 samples.

Results

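Collagen genes were taken as every row of the deposited expression table whose symbol reads COL, a number, A and a number, and 44 of the 60564 rows matched. Of these, 22 reached 1 FPKM (mapped fragments per unit of transcript length and of library size) in at least 3 of the 24 libraries and are described here. The minimum of 1 FPKM was passed in all 24 libraries by 8 of them (COL1A1, COL3A1, COL4A1, COL4A2, COL5A1, COL6A1, COL6A2 and COL18A1), in 4 to 23 libraries by 10, and in exactly 3 libraries by 4 (COL6A5, COL7A1, COL19A1 and COL27A1). The libraries of the last 4 all belonged to a single group, so these genes were kept only because of the group in which they were high. The other 22 rows reached 1 FPKM in no library, and the highest single value among them was 0.901 FPKM, for COL1A2.

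Both cell lines studied derive from human neuroblastoma, a childhood tumour of the sympathetic nervous system. MYCN is amplified in SK-N-BE(2) and has a normal copy number in SH-SY5Y. Both lines had been infected with lentiviruses and selected with puromycin, so all 8 groups, controls included, carry a vector. The constructs were short hairpin RNA against NDUFS6, a subunit of mitochondrial complex I (knockdown), and the coding sequence of NDUFS6 (overexpression), and each had an empty vector control of its own in each line. Each group held 3 libraries. The labels call the 3 libraries biological replicates but do not say that they came from separate infections, so the spread behind the p-values may be technical only. The labels give neither the promoter that drives each construct nor the hairpin sequences. The series was made to find transcripts that change with NDUFS6, and the comparisons below ask how collagen transcripts do.

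Collagens are extracellular matrix proteins in which 3 chains wind into a triple helix. Fibrillar collagens (types I, II, III, V and XI) form the banded fibrils of connective tissue, collagen IV forms the sheet of basement membranes, and collagen VI forms beaded filaments around cells. Chains are hydroxylated and folded in the endoplasmic reticulum, exported in enlarged COPII carriers, trimmed outside the cell and cross-linked. In neuroblastoma, matrix transcripts are associated with the mesenchymal state of the tumour cells and with stromal cells.

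Sequences are shown at the starts of 4 of the 8 collagen genes at 1 FPKM or more in every library. COL1A1, COL3A1 and COL6A1 had no RefSeq start in the source used here, and COL18A1 is not shown. COL4A1 and COL4A2 stand head to head on opposite strands, and a short stretch separates their starts in RefSeq (GRCh38.p14). COL5A1 and COL6A2 are shown up to the base before the start that lies furthest upstream in RefSeq or GENCODE. All are 5′ to 3′ on the plus strand, and capitals mark matches on either strand to CCAAT (the CCAAT box), to GGGCGG (the core of a GC box), to TATAAA (the TATA box) and to TGANTCA (an AP-1 site). No matches overlapped in the printed stretches.
COL4A1-COL4A2, chr13:110307158-110307283: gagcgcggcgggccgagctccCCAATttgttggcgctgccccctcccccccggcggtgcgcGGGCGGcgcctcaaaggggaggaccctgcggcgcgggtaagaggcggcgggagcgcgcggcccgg
COL5A1, chr9:134641553-134641773: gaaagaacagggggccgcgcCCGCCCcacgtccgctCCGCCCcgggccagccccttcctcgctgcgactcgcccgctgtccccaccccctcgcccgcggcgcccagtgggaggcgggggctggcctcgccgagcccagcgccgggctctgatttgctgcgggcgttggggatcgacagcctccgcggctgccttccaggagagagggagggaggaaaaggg
COL6A2, chr21:46097862-46098096: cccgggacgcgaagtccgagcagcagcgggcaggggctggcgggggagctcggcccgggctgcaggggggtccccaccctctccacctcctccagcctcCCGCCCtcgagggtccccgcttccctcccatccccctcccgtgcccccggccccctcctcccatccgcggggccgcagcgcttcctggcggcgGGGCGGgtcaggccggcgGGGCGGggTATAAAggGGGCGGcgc
The stretch between COL4A1 and COL4A2 was 126 bases long, with a GC content of 80.2%, and held 1 CCAAT and 1 GGGCGG. GENCODE release 29 places the starts of both genes elsewhere, and its COL4A1 and COL4A2 records overlap. RefSeq starts were available for 15 of the 22 genes. Of these 15, in the 250 bases before the start, 3 held CCAAT (COL4A1, COL4A2 and COL11A1), against 33% of 27305 genes. GGGCGG was in 12 of the 15, against 42.3% of all genes. TATAAA was in 3 (COL6A2, COL6A6 and COL7A1), against 11.1%, and TGANTCA was in none, against 6.6%. The 250 bases before COL4A1 and those before COL4A2 both hold the printed stretch between them, so its CCAAT and its GGGCGG are counted for both genes. These are letter matches and not binding sites.

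The sum of FPKM over a library ranged from 249708 to 276091, and read numbers are not stated in the sources used here. No libraries held identical values. NDUFS6 lay between 1.09 and 1.61 FPKM in SK-N-BE(2) knockdown libraries against 9.29 to 12.2 FPKM in their control, and between 3.11 and 4.98 FPKM in SH-SY5Y knockdown libraries against 11.1 to 12.1 FPKM. In overexpression libraries it lay between 199 and 214 FPKM in SH-SY5Y, against 10.2 to 11.5 FPKM, but only between 14.9 and 18.95 FPKM in SK-N-BE(2), against 11.9 to 13.9 FPKM. The 8 adrenergic neuroblastoma markers were above 0 in at least 1 library of every group, except TH, which was listed at 0 in all 3 SH-SY5Y knockdown libraries. These are bulk libraries, in which fewer cells of a kind and less RNA per cell cannot be told apart.

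The summed level of all 44 collagen rows was highest in SH-SY5Y knockdown libraries. They held 320.5, 326 and 310.0 FPKM, against 179, 178 and 173 FPKM in their control. SH-SY5Y overexpression libraries held 63.9, 63 and 62.8 FPKM, close to the 66.4, 64.4 and 63.9 FPKM of their own control. Knockdown libraries of both lines therefore stood above their own controls without overlap, and the 2 empty vector controls of SH-SY5Y stood apart from each other by more than any construct from its own control in SK-N-BE(2). In SK-N-BE(2) the sums were 147, 155 and 158 FPKM with knockdown, 95, 95 and 95.8 FPKM in its control, 90.7, 81.4 and 86.3 FPKM with overexpression and 77.5, 76.2 and 79.9 FPKM in that control. COL3A1 alone made up 49.4% ± 0.206 (SD, n = 3) of the sum in SH-SY5Y knockdown libraries and 6.11% ± 0.352 (SD, n = 3) in SK-N-BE(2) overexpression libraries. Without COL3A1 the mean sum was 161 FPKM in SH-SY5Y knockdown libraries and 105 FPKM in their control.

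**Figure D1:**
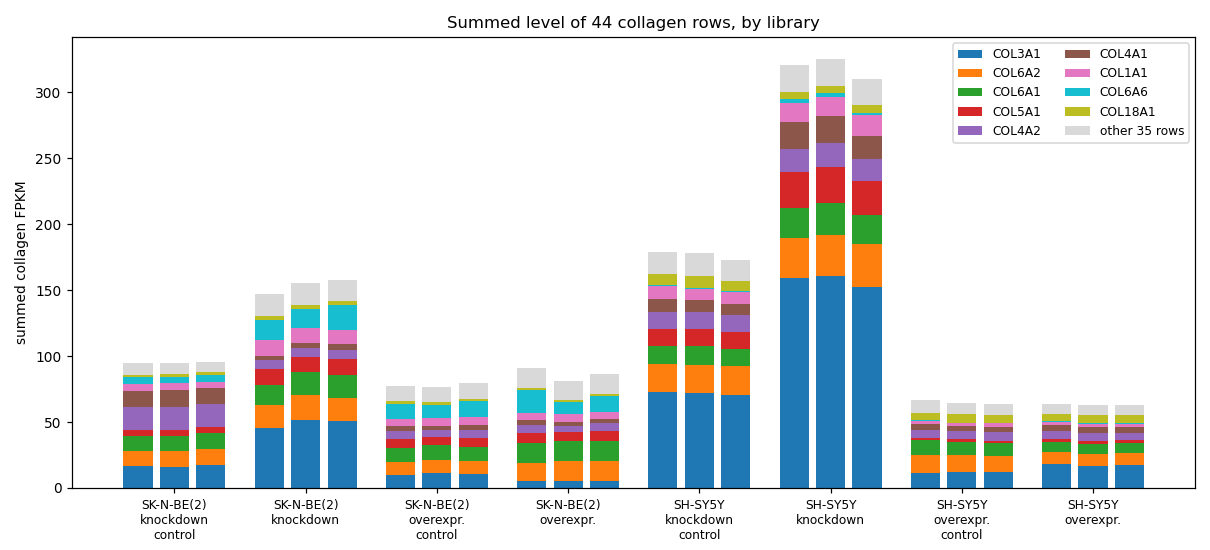
Summed FPKM of the 44 collagen rows in each of the 24 libraries (bars, linear axis from 0), stacked by the 9 genes that make up most of it. The 3 SH-SY5Y knockdown libraries reach 320.5, 326 and 310.0 FPKM, and COL3A1 is the largest piece there.

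By class, members were 6 of 11 fibrillar collagens, 2 of 6 collagen IV genes, 5 of 5 collagen VI genes, 5 of 10 fibril-associated collagens, collagen VII, 1 of 2 multiplexins, 1 of 4 transmembrane collagens and 1 of 2 other collagens. None of the 3 short-chain network collagens (COL8A1, COL8A2 and COL10A1) was a member. Among the 8 genes present in every library, COL3A1 had the highest mean level in all knockdown libraries and in the knockdown control and overexpression libraries of SH-SY5Y. COL4A2 had it in the knockdown control of SK-N-BE(2), and COL6A1 or COL6A2 in the remaining groups. In SK-N-BE(2) overexpression libraries these were at 15 ± 0.525 and 14.8 ± 0.678 FPKM (SD, n = 3), which overlap. COL18A1 had the lowest level of the 8 in every SK-N-BE(2) group.

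**Figure D2:**
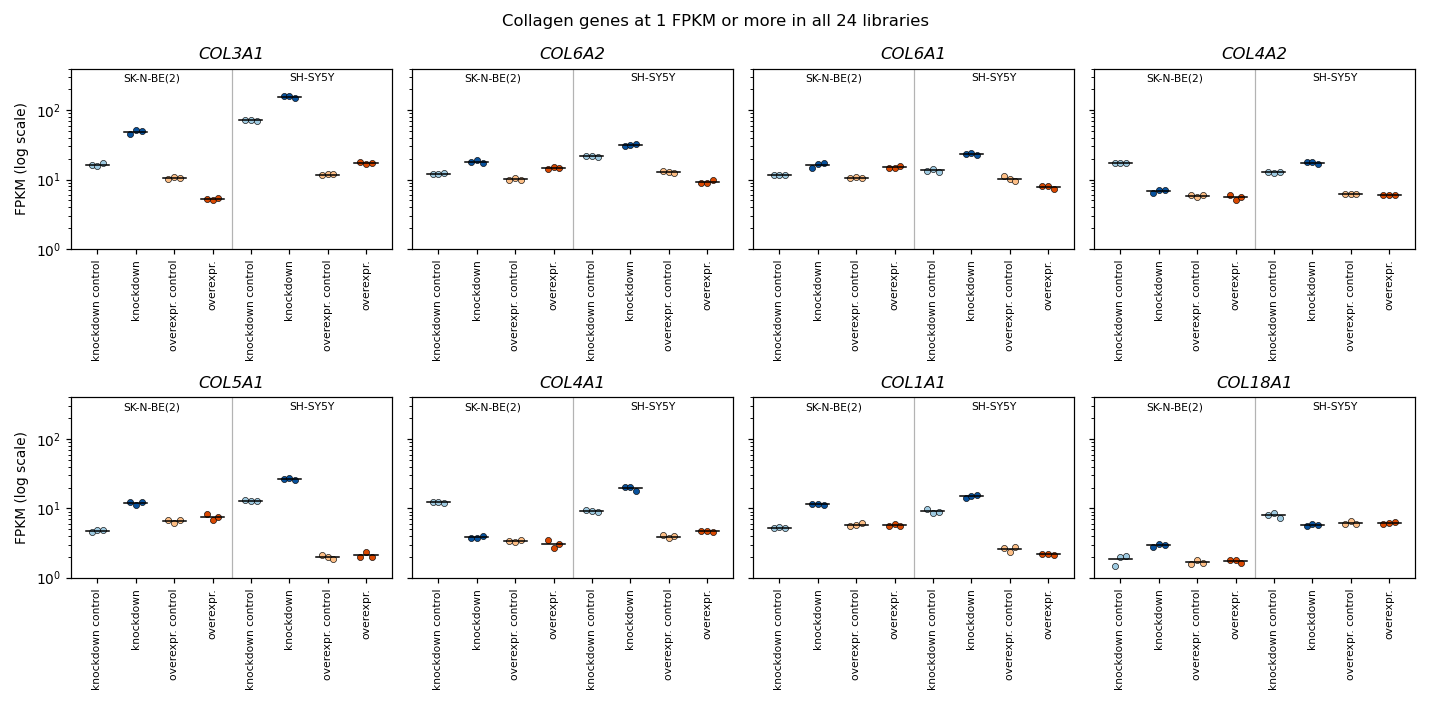
FPKM (log axis) of the 8 collagens with at least 1 FPKM in all 24 libraries; each point is a library, each line a group mean. COL3A1 spans 5.25 to 157 FPKM between group means, and COL4A1 and COL4A2 are raised in the knockdown control of SK-N-BE(2) alone among the groups of that line.

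In SK-N-BE(2), knockdown raised most collagens above their own control. Of the 22 members, 17 rose and 3 fell at an adjusted p under 0.05 (limma), while 27.4% of all 15903 tested genes rose and 28.3% fell (55.7% either way). Their median log2 change was 0.48, against -0.01 over all tested genes. Of the 8 members present in every library, which the minimum could not select for a high group, 6 rose and COL4A1 and COL4A2 fell. COL6A5 is counted among the 17 but was kept only through this knockdown group, so its rise is no support. All log2 changes given here compare log2(FPKM + 1), so those of genes near or below 1 FPKM are understated.

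In SH-SY5Y, knockdown raised 14 of the 22 members and lowered 6, while 26.3% of all tested genes rose and 29.6% fell (56.0% either way). The median log2 change of the members was 0.44. Of the 8 members present in every library, 7 rose and COL18A1 fell. COL7A1 and COL27A1, counted among the 14, were kept only through this knockdown group. In both lines, 10 members rose with knockdown (COL1A1, COL3A1, COL5A1, COL6A1, COL6A2, COL6A6, COL7A1, COL16A1, COL19A1 and COL27A1) and COL9A2 fell. Another 5 rose in SK-N-BE(2) and fell in SH-SY5Y (COL6A3, COL9A3, COL18A1, COL23A1 and COL26A1), and COL4A1 and COL4A2 did the reverse.

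Overexpression changed fewer members. In SK-N-BE(2), 8 rose and 4 fell, while 12.9% of all tested genes rose and 16.8% fell (29.7% either way). COL19A1, among the 4, was kept only through the control of this comparison. The count over all genes was 4716, and it became 966 with only the compared groups in the model (members 5 rises and 2 falls), 2754 without the second overexpression library and 3082 without the third control library. In SH-SY5Y, 2 rose (COL3A1 and COL4A1) and 6 fell, while 15.4% of all tested genes rose and 17.2% fell (32.6% either way), so 8 of 22 is a share near that of all genes. The 8 calls became between 4 and 7 when a library of either group was left out, with 5 without the third overexpression library, 4 without the first library of the control and 5 without the second. Scaled to a fixed sum (TPM), the share of called genes that rose, over all genes, moved from 49.2% to 60.8% in SK-N-BE(2) knockdown, from 47% to 35.6% in SH-SY5Y knockdown and from 43.4% to 32.2% in SK-N-BE(2) overexpression. The members then gave 17 rises and 3 falls, 14 and 6, and 7 and 4.

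The 2 empty vector controls of a line also differed from each other in collagen levels. In SH-SY5Y, 18 of the 22 members were higher in the knockdown control than in the overexpression control and none was lower, while 18.4% of all tested genes were higher and 17.8% lower (36.2% either way). In SK-N-BE(2), 5 were higher and 7 lower, while 15.5% of all genes were higher and 19.0% lower (34.5% either way). COL19A1, among the 7, was kept only through the overexpression control, so its difference is no support. COL3A1 had the largest SH-SY5Y difference of the 22 members on the log2(FPKM + 1) scale, where their median was 0.53. By ratio of mean FPKM, COL6A3 (6.91 times) and COL5A1 (6.5 times) stood above COL3A1 (6.07 times). COL3A1 held 72.5, 71.8 and 70.8 FPKM in the knockdown control of SH-SY5Y and 11.6, 11.8 and 12 FPKM in its overexpression control, with no overlap, a log2 difference of 2.51 (SE 0.05, limma adjusted p = 3.7e-18).

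Each construct was therefore also set against the other empty vector control of its line. In SK-N-BE(2) knockdown, 15 of the 20 calls were made the same way, 3 were made the opposite way (COL4A2, COL6A3 and COL19A1) and 2 were not made (COL4A1 and COL22A1). COL6A5, among the 15, was kept only through the knockdown group and COL19A1 only through the other control, so both are description only. In SH-SY5Y knockdown, 17 of 20 were made the same way, COL6A3 the opposite way, and COL9A3 and COL18A1 were not called. COL7A1 and COL27A1, among the 17, were kept only through the knockdown group. In SK-N-BE(2) overexpression, 14 members rose and 3 fell against the other control, and 8 of the 12 calls were made the same way, COL6A3, COL19A1 and COL26A1 the opposite way, and COL9A2 was not called. The COL19A1 reversal is description only, since the gene was kept only through the construct's own control. In SH-SY5Y overexpression, 17 members were lower than the other control and none was higher, with 8810 genes called in all against 5186, and COL3A1 and COL4A1 changed direction. The SH-SY5Y knockdown rises were larger against the other control, at 2.15 for COL1A1, 3.20 for COL5A1, 2.07 for COL4A1, 1.35 for COL4A2, 1.23 for COL6A2 and 1.70 for COL11A1 on the log2 scale. These comparisons share the construct's libraries, so they are not independent of each other.

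**Figure D3:**
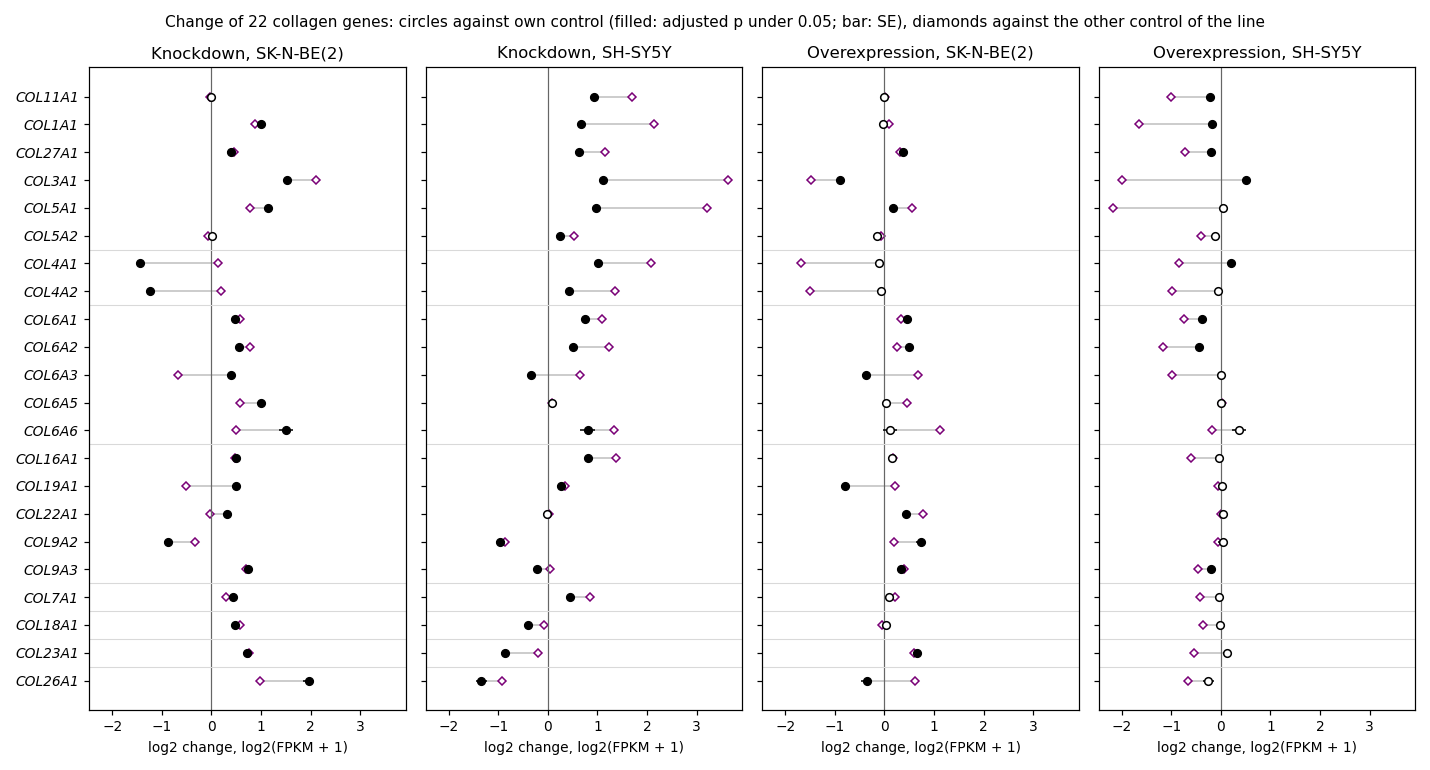
log2 change of 22 collagens on the log2(FPKM + 1) scale in the 4 construct comparisons, ordered by class; circles are changes against the construct's own control with their SE (filled where the adjusted p is under 0.05), diamonds are changes against the other control of the line. In SH-SY5Y overexpression 17 diamonds are called lower and none higher, while 8 circles are called.

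Among fibrillar collagens, COL3A1 (hg38, 2:188974320-189012746), the type III chain of distensible tissues, had the highest mean level over all libraries. In SK-N-BE(2) overexpression libraries its mean of 5.25 FPKM was below the 7.57 FPKM of COL5A1 and the 5.68 FPKM of COL1A1. SK-N-BE(2) knockdown libraries held 45.4, 51.6 and 50.5 FPKM and their control 16.3, 15.6 and 17.2 FPKM. The groups did not overlap, the knockdown mean was 3 times that of the control, and the log2 change was 1.53 (SE 0.05, limma adjusted p = 1.5e-15). SH-SY5Y knockdown libraries held 159, 161 and 153 FPKM, all above the 72.5, 71.8 and 70.8 FPKM of their control, with a log2 change of 1.12 (SE 0.05, limma adjusted p = 6.65e-14). Against the other control the changes were larger, 2.11 and 3.63. The 2 lines differed with overexpression, which raised NDUFS6 itself far less in SK-N-BE(2) than in SH-SY5Y. Overexpression lowered COL3A1 in SK-N-BE(2), from 10.1, 10.9 and 10.7 to 5.17, 5.1 and 5.47 FPKM, a log2 change of -0.89 (SE 0.05, limma adjusted p = 1.86e-10). It raised COL3A1 in SH-SY5Y, from 11.6, 11.8 and 12 to 18.1, 16.6 and 17.1 FPKM, a log2 change of 0.51 (SE 0.05, limma adjusted p = 1.19e-07), but against the other SH-SY5Y control the change was -1.99. The COL3A1 exons include the microRNA gene MIR3606 on the same strand, so their reads cannot be told apart.

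COL1A1 (17:50183289-50201632), the α1 chain of type I collagen, was 11.5, 11.6 and 11.2 FPKM in SK-N-BE(2) knockdown libraries against 5.19, 5.3 and 5.28 FPKM in their control. All knockdown libraries were higher than all controls, with a log2 change of 0.99 (SE 0.05, limma adjusted p = 3.8e-12). For SH-SY5Y they were 14.3, 14.9 and 15.4 FPKM against 9.85, 8.5 and 8.85 FPKM, also without overlap, and the change was 0.66 (SE 0.05, limma adjusted p = 1.43e-09). SK-N-BE(2) overexpression libraries, at 5.52, 5.96 and 5.56 FPKM, overlapped their control, at 5.66, 5.67 and 6.17 FPKM, and the adjusted p was 0.694. SH-SY5Y overexpression libraries held 2.23, 2.19 and 2.11 FPKM, below the 2.67, 2.33 and 2.79 FPKM of their control, with a log2 change of -0.17 (SE 0.05, limma adjusted p = 0.015). That call was not made without the third overexpression library or without the first or the third library of the control.
The partner chain COL1A2, which joins COL1A1 in type I collagen, was no member. It lay at or under 0.0557 FPKM in every SK-N-BE(2) library, and at 0.901, 0.882 and 0.84 FPKM in SH-SY5Y knockdown libraries against 0.448, 0.458 and 0.505 FPKM in their control. SH-SY5Y overexpression libraries held 0.368, 0.284 and 0.294 FPKM of COL1A2 and their control 0.279, 0.227 and 0.408 FPKM. COL1A1 was thus many times COL1A2 in FPKM, which is scaled to transcript length, with a ratio of 17.1 ± 1.23 (SD, n = 3) in SH-SY5Y knockdown libraries.

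COL5A1, which starts and limits the width of collagen I fibrils, was 12.3, 11.1 and 12.3 FPKM in SK-N-BE(2) knockdown libraries against 4.6, 4.92 and 4.85 FPKM. The log2 change was 1.15 (SE 0.06, limma adjusted p = 3.97e-12) and the groups did not overlap. For SH-SY5Y they were 26.9, 27.5 and 25.3 FPKM against 13.4, 12.8 and 12.8 FPKM, a log2 change of 0.98 (SE 0.06, limma adjusted p = 3.63e-11). Its SH-SY5Y overexpression control stood far lower, at 2.11, 2.01 and 1.89 FPKM, and overexpression libraries, at 1.99, 2.35 and 2 FPKM, overlapped it. The change of the same overexpression libraries against the knockdown control was -2.17. COL5A2, the partner chain, rose in SH-SY5Y knockdown by 0.24, with an adjusted p of 0.0062 (limma).

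COL11A1, a minor fibrillar chain that is known from cartilage, was a transcript of SH-SY5Y. It was listed at 0 in all 6 SK-N-BE(2) knockdown and knockdown control libraries and at or under 0.0281 FPKM in the other 6. In SH-SY5Y it was 6.18, 6.42 and 5.55 FPKM with knockdown and 2.91, 2.67 and 2.63 FPKM in the control, without overlap, a log2 change of 0.92 (SE 0.06, limma adjusted p = 7.35e-11). Overexpression libraries held 0.882, 0.799 and 0.904 FPKM and their control 1.36, 1.09 and 1.08 FPKM, a log2 change of -0.22 (SE 0.06, limma adjusted p = 0.00732), which was not called without the first library of that control. COL27A1, a fibrillar collagen of cartilage that reached 1 FPKM only in SH-SY5Y knockdown libraries, was 1.88, 1.91 and 1.83 FPKM there against 0.895, 0.927 and 0.757 FPKM. Its other levels lay between 0.091 and 0.927 FPKM.

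COL4A1 and COL4A2, the chains of the main basement membrane network, had their highest SK-N-BE(2) levels in a control group, that of the knockdown. COL4A1 held 12.3, 12.4 and 12 FPKM in that control and 3.75, 3.79 and 3.99 FPKM with knockdown, 3.44, 3.3 and 3.5 FPKM in the overexpression control and 3.54, 2.71 and 3.09 FPKM with overexpression. COL4A2 held 17.3, 17.4 and 17.2 FPKM, 6.36, 7 and 7.06 FPKM, 5.89, 5.63 and 5.94 FPKM and 5.92, 5.11 and 5.59 FPKM in the same order. The knockdown groups did not overlap with their own control, and the log2 changes were -1.45 (SE 0.06, limma adjusted p = 7.42e-14) for COL4A1 and -1.23 (SE 0.04, limma adjusted p = 1.01e-14) for COL4A2. Against the other control they were 0.13 (adjusted p = 0.0706) and 0.19 (adjusted p = 0.000996), so the fall depended on which empty vector served as control.

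In SH-SY5Y both genes rose with knockdown. COL4A1 was 20.6, 20.5 and 18 FPKM against 9.44, 9.23 and 8.9 FPKM, a log2 change of 1.02 (SE 0.06, limma adjusted p = 1.06e-11), and COL4A2 was 17.7, 17.8 and 16.6 FPKM against 12.8, 12.6 and 12.7 FPKM, a change of 0.43 (SE 0.04, limma adjusted p = 5.64e-08). No libraries overlapped in either gene. The pair was not raised equally, and the ratio of COL4A2 to COL4A1 was 0.859, 0.87 and 0.923 with knockdown and 1.35, 1.36 and 1.43 in the control. SH-SY5Y overexpression libraries held 4.7, 4.65 and 4.61 FPKM of COL4A1 and their control 4.09, 3.71 and 3.97 FPKM, a log2 change of 0.20 (SE 0.06, limma adjusted p = 0.0137) that was not called without the second library of the control. COL4A2 held 6.06, 5.93 and 5.91 FPKM with overexpression and 6.11, 6.22 and 6.28 FPKM in that control, with an adjusted p of 0.442 (limma). COL4A2 has antisense genes (COL4A2-AS1 and COL4A2-AS2) on the opposite strand, and the libraries were strand-specific per the labels, but how reads were counted is not known. COL4A3, COL4A4, COL4A5 and COL4A6, the chains of specialised basement membranes, reached at most 0.0798 FPKM.

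**Figure D4:**
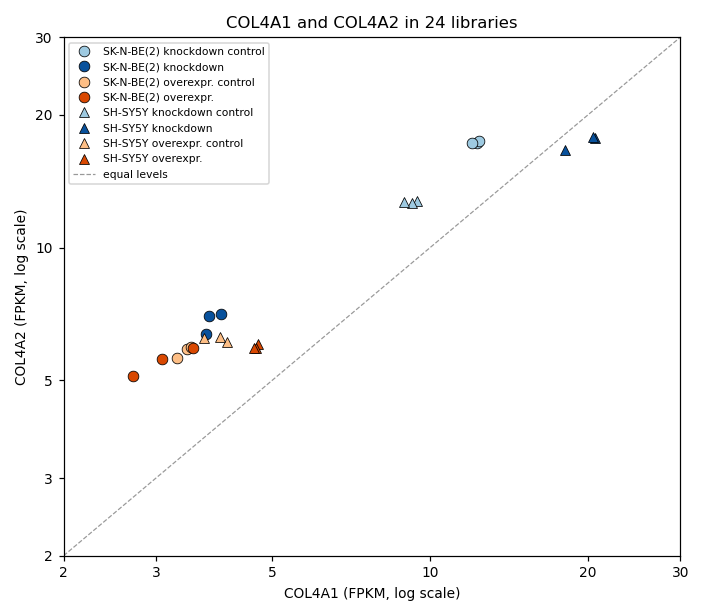
COL4A2 against COL4A1 in 24 libraries (FPKM, both axes log); circles are SK-N-BE(2), triangles SH-SY5Y, the dashed line marks equal levels. The 3 SK-N-BE(2) knockdown control libraries stand apart from the other 9 of that line, and the 3 SH-SY5Y knockdown libraries are the ones below the dashed line.

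Collagen VI filaments are built from an α1 chain, an α2 chain and a further chain, which COL6A3, COL6A5 or COL6A6 provides. COL6A1 and COL6A2, neighbours on chromosome 21, rose with knockdown in both lines. COL6A1 was 14.8, 17 and 17.4 FPKM in SK-N-BE(2) against 11.5, 11.5 and 11.7 FPKM, with a log2 change of 0.47 (SE 0.06, limma adjusted p = 1.57e-06). COL6A2 was 17.8, 19.3 and 17.5 FPKM against 12, 12.1 and 12.4 FPKM in the same libraries, a change of 0.55 (SE 0.04, limma adjusted p = 1.88e-09). Neither gene's groups overlapped. In SH-SY5Y COL6A1 was 23.3, 24.2 and 22.2 FPKM against 13.3, 14.3 and 13 FPKM and COL6A2 30.3, 31.3 and 32.3 FPKM against 21.7, 21.7 and 21.5 FPKM, changes of 0.74 (limma adjusted p = 1.87e-09) and 0.51 (limma adjusted p = 3.48e-09).

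With overexpression the 2 genes moved in opposite directions in the 2 lines. The constructs were not alike in effect, since NDUFS6 reached at most 18.95 FPKM in SK-N-BE(2) overexpression libraries and at least 199 FPKM in those of SH-SY5Y. In SK-N-BE(2), COL6A1 rose from 10.4, 10.8 and 10.6 to 14.5, 14.8 and 15.5 FPKM, a change of 0.46 (SE 0.06, limma adjusted p = 1.96e-05), and COL6A2 from 9.94, 10.5 and 9.98 to 14, 15.4 and 14.8 FPKM, a change of 0.50 (SE 0.04, limma adjusted p = 1.66e-07). In SH-SY5Y, COL6A1 fell from 11.3, 10.1 and 9.53 to 7.97, 7.98 and 7.19 FPKM, a change of -0.38 (SE 0.06, limma adjusted p = 7.38e-05), and COL6A2 fell from 13.1, 12.8 and 12.5 to 8.84, 8.79 and 9.74 FPKM, a change of -0.45 (SE 0.04, limma adjusted p = 2.23e-07). The groups did not overlap in any of these, and all 4 calls were made the same way against the other control, at 0.34, 0.26, -0.74 and -1.16 in the order given.

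The further chains differed between lines. COL6A6 was 15.5, 14.7 and 18.7 FPKM in SK-N-BE(2) knockdown libraries against 5.41, 4.97 and 4.87 FPKM, a log2 change of 1.50 (SE 0.14, limma adjusted p = 2.36e-08), without overlap. Against the other control, at 11.7, 10.1 and 12.1 FPKM, the change was 0.49 (limma adjusted p = 0.00789). In SH-SY5Y it was 2.48, 2.45 and 1.78 FPKM against 0.93, 0.96 and 0.686 FPKM, a change of 0.80 (SE 0.14, limma adjusted p = 7.68e-05). Over the control libraries it was 2.49 higher on the log2 scale in SK-N-BE(2) (limma adjusted p = 7.04e-15). COL6A3, the usual partner of the α1 and α2 chains, was at most 1.93 FPKM. SK-N-BE(2) overexpression libraries held 1.31, 0.995 and 1.12 FPKM against 1.92, 1.53 and 1.93 FPKM, a log2 change of -0.38 (SE 0.07, limma adjusted p = 0.000487), which reversed to 0.68 against the other control and was not called when only the compared groups entered the model. COL6A5 reached 1 FPKM only in SK-N-BE(2) knockdown libraries, at 1.36, 1.24 and 1.32 FPKM.

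Among the fibril-associated collagens, which decorate fibrils without forming them, COL9A2 had the highest mean. It is a chain of collagen IX, and fell with knockdown in both lines. It was 1.78, 1.42 and 1.5 FPKM in SK-N-BE(2) against 3.93, 3.85 and 3.28 FPKM, a log2 change of -0.87 (SE 0.09, limma adjusted p = 1.11e-07). In SH-SY5Y it was 0.431, 0.303 and 0.468 FPKM against 1.5, 1.98 and 1.67 FPKM, a change of -0.96 (SE 0.09, limma adjusted p = 2.37e-08), and neither pair of groups overlapped. Against the other control the SK-N-BE(2) change was -0.34. In SK-N-BE(2) overexpression it rose from 2.19, 2.49 and 2.06 to 3.85, 4.12 and 5.2 FPKM, a change of 0.73 (SE 0.09, limma adjusted p = 1.41e-05), but 0.20 against the other control, which was not called (adjusted p = 0.0994). COL9A3, its partner chain, was 0.74 higher with SK-N-BE(2) knockdown on the log2 scale (limma adjusted p = 1.12e-08) and shares exons with TCFL5 on the opposite strand.

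COL19A1 reached 1 FPKM only in the overexpression control of SK-N-BE(2), at 1.66, 1.38 and 1.67 FPKM. Overexpression libraries held 0.777, 0.386 and 0.332 FPKM and the knockdown control 0.291, 0.236 and 0.29 FPKM, so COL19A1 with overexpression lay below its own control and above the other. No test is given, since this gene was kept only through that control group. COL19A1 shares exons with LMBRD1 on the opposite strand. Over the control libraries COL22A1 was 0.91 higher in SK-N-BE(2) than in SH-SY5Y on the log2 scale (limma adjusted p = 9.57e-13). In COL22A1, known from tissue junctions, the control libraries held 0.652, 0.758 and 0.817 and 1.21, 1.09 and 1.33 FPKM in SK-N-BE(2), and at most 0.0742 FPKM in SH-SY5Y. COL16A1, another fibril-associated chain, rose with knockdown in both lines, by 0.49 and 0.81, and shares exons with AC114488.2 on the opposite strand.

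COL18A1, a basement membrane multiplexin whose end is cut off as endostatin, was higher in SH-SY5Y than in SK-N-BE(2) controls by 1.55 on the log2 scale (limma adjusted p = 8.04e-17), a difference written as -1.55 for SK-N-BE(2) minus SH-SY5Y. COL18A1 shares exons with SLC19A1 on the opposite strand. Knockdown raised it in SK-N-BE(2), from 1.49, 1.99 and 2.05 to 2.8, 3.03 and 2.99 FPKM, a change of 0.48 (SE 0.07, limma adjusted p = 5.72e-06). In SH-SY5Y it fell from 8.11, 8.71 and 7.37 to 5.62, 5.99 and 5.84 FPKM, a change of -0.41 (SE 0.07, limma adjusted p = 3.42e-05), but -0.07 against the other control (adjusted p = 0.4).
COL23A1, a transmembrane collagen, behaved in the same directions. It was 0.203, 0.341 and 0.276 FPKM in SH-SY5Y knockdown libraries against 1.18, 1.24 and 1.57 FPKM, a change of -0.87 (SE 0.08, limma adjusted p = 8.72e-09) that was -0.20 against the other control (adjusted p = 0.0358). In SK-N-BE(2) it was 1.56, 1.96 and 1.68 FPKM against 0.712, 0.659 and 0.629 FPKM, a change of 0.71 (limma adjusted p = 1.84e-07). With overexpression in SK-N-BE(2) it was 1.62, 1.57 and 1.4 FPKM against 0.506, 0.685 and 0.642 FPKM, a change of 0.65 (SE 0.08, limma adjusted p = 7.72e-06).

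COL26A1 moved furthest in opposite directions. SK-N-BE(2) knockdown libraries held 3.4, 3.35 and 2.88 FPKM and their control 0.0956, 0.0396 and 0.111 FPKM, a mean ratio of 39 and a log2 change of 1.96 (SE 0.11, limma adjusted p = 5.26e-12). SH-SY5Y knockdown libraries held 0.141, 0.0919 and 0.0261 FPKM and their control 1.55, 1.77 and 1.96 FPKM, a log2 change of -1.34 (SE 0.11, limma adjusted p = 1.2e-09). No libraries overlapped in either line, and the changes were 0.98 and -0.93 against the other controls. In SK-N-BE(2) overexpression libraries it was 0.436, 0.928 and 0.651 FPKM against 0.963, 0.953 and 1.5 FPKM, a change of -0.36 (SE 0.11, limma adjusted p = 0.0169), which reversed against the other control and was not called without the first overexpression library or the third control library. COL7A1, the anchoring fibril chain of skin, passed the minimum only in SH-SY5Y knockdown libraries, at 1.37, 1.36 and 1.47 FPKM against 0.72, 0.814 and 0.747 FPKM in their control, and no test is given for that pair. In SK-N-BE(2) COL7A1 was 0.497, 0.532 and 0.588 FPKM with knockdown against 0.164, 0.123 and 0.147 FPKM, without overlap, a log2 change of 0.43 (SE 0.06, limma adjusted p = 3.55e-06). The microRNA gene MIR711 shares its exons on the same strand.

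Tested directly, the knockdown change differed between lines for 16 of 22 members, 10 with the higher value in SK-N-BE(2) and 6 with the lower, while 29.5% of all genes were called higher and 26.3% lower (55.8% either way). These counts include COL11A1, which was at 0 in both SK-N-BE(2) groups, and COL6A5, kept only through 1 of the groups compared. For COL16A1 and COL6A5 the ratio of mean FPKM ordered the lines the other way. The difference was 3.30 for COL26A1 and -2.47 for COL4A1 on the log2 scale, with limma adjusted p of 3.9e-13 and 3.7e-15. Scaled to a fixed sum (TPM), which moved the median of all genes from 0.01 to 0.16 in this comparison, 12 members were higher and 3 lower. The overexpression change differed for 12 of 22, 8 higher in SK-N-BE(2) and 4 lower, with 18.3% of all genes called higher and 18.5% lower (36.8% either way). COL19A1, kept only through 1 of the groups compared, is counted among the 4, and for COL22A1, among the 8, the ratio of means ordered the lines the other way. The difference was -1.40 for COL3A1 (limma adjusted p = 2.56e-11). NDUFS6 itself rose far less with overexpression in SK-N-BE(2) than in SH-SY5Y. Between the control libraries of the lines, 10 members were higher in SK-N-BE(2) and 10 lower, with 33.5% of all genes called higher and 43.8% lower (77.3% either way). COL19A1, among the 10 higher, was kept only through 1 of the groups compared. COL1A1, also called higher in SK-N-BE(2), had the lower mean FPKM there, at 5.54 against 5.83 FPKM, and its libraries overlapped. COL11A1 differed by -1.50 and COL3A1 by -1.11, both lower in SK-N-BE(2), with limma adjusted p of 2.01e-17 and 5.01e-17. COL3A1 control libraries of the lines overlapped, since the SH-SY5Y overexpression control lay among the SK-N-BE(2) controls.

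Among genes that modify and fold collagen chains, more rose than fell with knockdown in both lines. Of 18 tested folding and modification genes, 12 rose and 2 fell in SK-N-BE(2) and 11 rose and 2 fell in SH-SY5Y, with median log2 changes of 0.43 and 0.24 against -0.01 over all genes in both. Over all tested genes 27.4% rose and 28.3% fell in SK-N-BE(2), and 26.3% and 29.6% in SH-SY5Y. Between the 2 SH-SY5Y empty vector controls 14 of 18 were higher in the knockdown control and none lower, a median difference of 0.32, while 18.4% and 17.8% of all genes were higher and lower. SERPINH1, the HSP47 chaperone of collagen, was 60.4 ± 7.54 against 13.6 ± 0.185 FPKM, a log2 change of 2.06 (adjusted p = 7.7e-14) in SK-N-BE(2), and 21.5 ± 1.35 against 8.57 ± 0.192 FPKM, a log2 change of 1.23 (adjusted p = 1.43e-10) in SH-SY5Y. SPARC, a matrix protein that binds collagen, was 101 ± 2.51 against 46.5 ± 0.518 FPKM, a log2 change of 1.10 (adjusted p = 1.2e-13) in SH-SY5Y, and the change was 2.42 against the other control. With overexpression, 7 rose and 0 fell in SK-N-BE(2) and 4 rose and 5 fell in SH-SY5Y, where the prolyl hydroxylase P4HA2 was 0.812 ± 0.0636 against 1.48 ± 0.0449 FPKM, a log2 change of -0.45 (adjusted p = 6.22e-06), and -1.37 against the other control. The shares of all genes were 12.9% and 16.8% in SK-N-BE(2) and 15.4% and 17.2% in SH-SY5Y. All 11 export genes rose in SK-N-BE(2) knockdown and none fell, and SEC24D, a COPII coat protein, was 21.9 ± 2.65 against 11.3 ± 0.45 FPKM, a log2 change of 0.89 (adjusted p = 2.32e-10). Between the 2 SK-N-BE(2) controls 5 of 11 were lower in the knockdown control and 0 higher, while 19.0% and 15.5% of all genes were lower and higher. Against the other control the log2 change was 0.87 for SEC24D. It was 0.60 for TFG (0.55 against its own control) and 0.12 for SEC13 (0.58 against its own control). In SH-SY5Y knockdown 3 of 11 rose, near the 26.3% of all genes, and 0 fell. In overexpression, 0 rose and 2 fell in SK-N-BE(2) and 2 rose and 0 fell in SH-SY5Y. The 2 falls and the 2 rises of 11 lie near the shares of all genes, 16.8% and 15.4%. Between the 2 SH-SY5Y controls 4 of 11 were higher in the knockdown control and none lower.

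Of 11 processing and cross-linking genes, 4 rose and 3 fell in SK-N-BE(2) knockdown, 6 rose and 3 fell in SH-SY5Y knockdown, 6 rose and 0 fell in SK-N-BE(2) overexpression and 2 rose and 1 fell in SH-SY5Y overexpression. Over all genes 27.4% and 28.3% rose and fell in the first, 26.3% and 29.6% in the second, 12.9% and 16.8% in the third and 15.4% and 17.2% in the fourth, so the SK-N-BE(2) knockdown counts lie near the shares of all genes. In the SH-SY5Y controls alone, 8 of 11 were higher in the knockdown control and 1 lower, while 18.4% and 17.8% of all genes were higher and lower. LOXL2, a lysyl oxidase that cross-links chains, was 3.96 ± 0.298 against 1.71 ± 0.204 FPKM, a log2 change of 0.87 (adjusted p = 3e-09) with SK-N-BE(2) knockdown and 15.4 ± 0.0543 against 6.03 ± 0.322 FPKM, a log2 change of 1.22 (adjusted p = 1.28e-11) with SH-SY5Y knockdown, where it was 2.68 against the other control. ADAMTS2, which trims the amino end of procollagen, was 5.76 ± 0.615 against 2.76 ± 0.131 FPKM, a log2 change of 0.84 (adjusted p = 2.52e-09) in SK-N-BE(2) knockdown libraries and 1.45 ± 0.21 against 6.61 ± 0.281 FPKM, a log2 change of -1.64 (adjusted p = 6.94e-14) in SH-SY5Y knockdown libraries. Against the other control the ADAMTS2 change was 0.40 in SK-N-BE(2), and in SH-SY5Y it was 0.02 (adjusted p = 0.82).

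Of 8 collagen receptor genes, 6 rose and 1 fell in SK-N-BE(2) knockdown and 5 rose and 1 fell in SH-SY5Y knockdown, 3 fell and none rose in SK-N-BE(2) overexpression, and 3 fell and none rose in SH-SY5Y overexpression. All genes gave 27.4% and 28.3%, 26.3% and 29.6%, 12.9% and 16.8% and 15.4% and 17.2% higher and lower in that order. Between the 2 SH-SY5Y controls 7 of 8 were higher in the knockdown control and none lower. Over all genes 18.4% were higher and 17.8% lower between these controls. ITGA11, the α chain of an integrin for fibrillar collagen, was 5.26 ± 0.662 against 0.279 ± 0.0931 FPKM, a log2 change of 2.29 (adjusted p = 3.82e-14) with SK-N-BE(2) knockdown. Its other control stood at 2.32 ± 0.368 FPKM, and against it the ITGA11 change was 0.92 (adjusted p = 4.76e-08). Of 9 collagen-degrading enzymes, 4 rose and 1 fell in SK-N-BE(2) and 8 rose and none fell in SH-SY5Y knockdown, and between the 2 SH-SY5Y controls 7 of 9 were higher in the knockdown control and 1 lower. Over all genes 27.4% rose and 28.3% fell in the first, 26.3% and 29.6% in the second, and 18.4% and 17.8% were higher and lower between these controls. MMP14, a membrane-bound collagenase, moved in opposite directions, at 7.56 ± 0.289 against 22.1 ± 0.437 FPKM, a log2 change of -1.43 (adjusted p = 2.52e-12) in SK-N-BE(2) knockdown libraries and 10.9 ± 0.0819 against 1.48 ± 0.267 FPKM, a log2 change of 2.26 (adjusted p = 1.39e-15) in SH-SY5Y knockdown libraries. In overexpression, 2 rose and 1 fell of the 9 enzymes in SK-N-BE(2) and 3 rose and 2 fell in SH-SY5Y. Over all genes 12.9% and 16.8% rose and fell in SK-N-BE(2) and 15.4% and 17.2% in SH-SY5Y, so the SK-N-BE(2) counts lie near the shares of all genes.

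Of 16 genes of TGF-beta signalling and collagen gene regulation, 8 rose and 2 fell in SK-N-BE(2) knockdown, 8 rose and 3 fell in SH-SY5Y knockdown, 1 rose and 3 fell in SK-N-BE(2) overexpression and 3 rose and 3 fell in SH-SY5Y overexpression. All genes gave 27.4% and 28.3%, 26.3% and 29.6%, 12.9% and 16.8% and 15.4% and 17.2% in the same comparisons and order of directions. Comparing the SH-SY5Y controls, 9 of 16 were higher in the knockdown control and 1 lower, while 18.4% and 17.8% of all genes were higher and lower. TGFB3 was 4.78 ± 0.362 against 0.552 ± 0.0883 FPKM, a log2 change of 1.90 (adjusted p = 2.82e-14) with SH-SY5Y knockdown, and TGFB2 0.941 ± 0.124 against 3.78 ± 0.309 FPKM, a log2 change of -1.30 (adjusted p = 1.31e-11), of which TGFB2 changed direction to 0.47 against the other control. Of 12 other basement membrane genes, 6 rose and 3 fell in SK-N-BE(2) knockdown, 6 rose and 4 fell in SH-SY5Y knockdown, 3 rose and 1 fell in SK-N-BE(2) overexpression and 2 rose and 8 fell in SH-SY5Y overexpression, where the linker NID1 was 12.7 ± 1.1 against 20.7 ± 0.674 FPKM, a log2 change of -0.67 (adjusted p = 4.73e-06), and -1.61 against the other control. Between the 2 SH-SY5Y controls 11 of 12 were higher in the knockdown control and none lower, more than in any construct comparison with its own control. The shares of all genes in each comparison are those given above for the TGF-beta list. The laminin chain LAMB1 was 90.5 ± 1.77 against 48 ± 0.505 FPKM, a log2 change of 0.90 (adjusted p = 5.62e-14) with SH-SY5Y knockdown, and 1.41 against the other control.

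Markers of other cells were counted too. Of 10 tested fibroblast and stroma markers, 8 rose and 1 fell in SH-SY5Y knockdown, where their summed level was 139.9 to 141 FPKM against 80.3 to 84.2 FPKM, while 26.3% and 29.6% of all genes rose and fell. Between the 2 SH-SY5Y controls 8 of 10 were higher in the knockdown control and none lower, while 18.4% and 17.8% of all genes were higher and lower. The median difference of these markers, 0.47, was the same as with knockdown. DCN, a small proteoglycan of stroma, was 9.3 ± 0.489 against 0.226 ± 0.0174 FPKM, a log2 change of 3.07 (adjusted p = 1.05e-18), and LUM, its relative, 34.8 ± 2.07 against 5.88 ± 0.601 FPKM, a log2 change of 2.38 (adjusted p = 3.97e-14). PDPN, another marker of the list, was listed at 0 in every library. In SK-N-BE(2) knockdown 2 rose and 2 fell (27.4% and 28.3% of all genes), and the sum was 131 to 156 FPKM against 149 to 155 FPKM. In SK-N-BE(2) overexpression 6 rose and 1 fell (12.9% and 16.8% of all genes), with 219.7 to 245 against 179.6 to 189.5 FPKM. In SH-SY5Y overexpression 1 rose and 2 fell (15.4% and 17.2% of all genes). Adrenergic neuroblastoma markers, 8 of 8 tested, gave 1 rise and 7 falls in SK-N-BE(2) knockdown (27.4% and 28.3% of all genes). They gave 3 rises and 4 falls in SH-SY5Y knockdown (26.3% and 29.6% of all genes). Few markers of the other lists were tested. In SH-SY5Y knockdown, of 4 Schwann cell markers 2 rose and 0 fell. Of 3 endothelial and pericyte markers 0 rose and 2 fell there, and the 1 chondrocyte marker fell. In SK-N-BE(2) knockdown, 1 Schwann cell marker rose and 2 fell. The endothelial and pericyte markers gave 0 rises and 2 falls there, and the chondrocyte marker rose. The part of these markers in the collagen results was not tested.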

How the data were processed

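Total RNA of both lines was sequenced. Per the labels, strand-specific TruSeq libraries were sequenced on a NovaSeq instrument. The submitters' processing notes name StringTie 1.3.1c, STAR without a version, FastQC 0.11.2 and the hg38 build. The authors deposited FPKM values for 60564 rows in 24 libraries. How reads were counted, from which annotation and at what depth is not stated in the sources used here. Depth is therefore unknown, and precision rests on the spread among the 3 libraries of each group, pooled over all 8 groups in the model.

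Collagen rows, their classes and the gene lists were chosen with earlier results of these data known. The test covered the 15903 genes that reached 1 FPKM in 3 or more libraries. On log2(FPKM + 1), limma 3.58.1 in R 4.3.3, with data.table (1.17.8), was run with all 8 groups in 1 model (16 residual degrees of freedom), trend and robust options on. Calls were made at a two-sided Benjamini-Hochberg adjusted p under 0.05 over all tested genes, and the procedure was tested on simulated data. Members named in full were the up to 4 largest called rises and falls of each comparison whose groups did not overlap and whose higher mean was at least 1 FPKM, the 3 largest differences between lines each way, the highest of each class, and COL1A1, COL1A2, COL3A1, COL4A1 and COL4A2. Other lists give counts and up to 3 members by smallest adjusted p. A gene of these lists is counted but its values are not reported here. Positions come from GENCODE release 29 and promoter letters from RefSeq. Alternatives were another pseudocount (0.1), testing all genes or those with a mean of at least 5 FPKM, TPM and median-of-ratios scaling, only the compared groups in the model, a replicate block, the other empty vector control and leaving out each library.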

Additional observations from a re-analysis of the deposited data

Results flagged for a closer look

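The change with a construct differed between the lines in 28 tests of the difference (limma, adjusted p under 0.05). Values are the log2 change in SK-N-BE(2) minus that in SH-SY5Y, each change against its own control. For knockdown, the difference was above 0 for 10 members, at 0.89 for COL18A1, 0.33 for COL1A1, 0.33 for COL22A1, 1.58 for COL23A1, 3.30 for COL26A1, 0.41 for COL3A1, 0.73 for COL6A3, 0.90 for COL6A5, 0.70 for COL6A6 and 0.96 for COL9A3. It was below 0 for 6, at -0.92 for COL11A1, -0.32 for COL16A1, -2.47 for COL4A1, -1.66 for COL4A2, -0.23 for COL5A2 and -0.27 for COL6A1. For overexpression, the difference was above 0 for 8 members, at 0.23 for COL11A1, 0.39 for COL22A1, 0.53 for COL23A1, 0.58 for COL27A1, 0.84 for COL6A1, 0.95 for COL6A2, 0.68 for COL9A2 and 0.54 for COL9A3. It was below 0 for 4, at -0.82 for COL19A1, -1.40 for COL3A1, -0.31 for COL4A1 and -0.39 for COL6A3. On this scale the differences of low members depend on the added 1 FPKM, and for 3 of them the ratio of means orders the lines the other way. With knockdown, COL16A1 went from 0.282 to 0.796 FPKM (2.82 times) in SK-N-BE(2) and from 1.54 to 3.44 FPKM (2.24 times) in SH-SY5Y. COL6A5 went from 0.163 to 1.3 FPKM (8 times) in SK-N-BE(2) and from 0.0041 to 0.0654 FPKM (15.9 times) in SH-SY5Y. With overexpression, COL22A1 went from 1.21 to 2 FPKM (1.65 times) and from 0.0278 to 0.065 FPKM (2.33 times). The knockdown value of COL11A1 is its SH-SY5Y change with the sign turned, since it was listed at 0 in both SK-N-BE(2) groups. COL6A5 for knockdown and COL19A1 for overexpression were kept only through 1 of the groups compared, so their values are a description. Adjusted p lay between 3.7e-15 (COL4A1, knockdown) and 0.04998 (COL5A2, knockdown). For COL4A1 and COL4A2 the SK-N-BE(2) knockdown change rests on a control that stood above the other control of that line, at a mean of 12.2 against 3.41 FPKM for COL4A1, and its part in the difference was not tested.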

How the results depend on the processing

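The counts of called members stayed within 1.5 times their value without the filter, with 0.1 as pseudocount, under both scalings and with the replicate block in all 9 comparisons. Under a mean of at least 5 FPKM, which left 8 members to test, they were 8 for both knockdowns and the SH-SY5Y controls, 4 for SK-N-BE(2) overexpression and the difference between lines in overexpression, and 6 for SH-SY5Y overexpression, the difference in knockdown, the SK-N-BE(2) controls and the control libraries between lines. With only the compared groups in the model SK-N-BE(2) overexpression gave 7 (966 against 4716 over all genes), and SH-SY5Y overexpression gave 17 against the other control and 4 to 7 with a library left out. In the difference between lines, 12 members were higher and 4 lower for knockdown with a pseudocount of 0.1, and 6 and 5 for overexpression, against 10 and 6, and 8 and 4. TPM moved the share of called genes that were higher from 52.8% to 69.6% for the difference in knockdown, from 49.8% to 38.1% for that in overexpression, and from 45.1% to 24.9% between the SK-N-BE(2) controls.

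Against the other control, called log2 changes reversed to 0.13 (COL4A1), 0.19 (COL4A2), -0.67 (COL6A3), -0.52 (COL19A1) and -0.03 (COL22A1) in SK-N-BE(2) knockdown, to 0.65 (COL6A3) and 0.05 (COL9A3) in SH-SY5Y knockdown, to 0.22 (COL19A1), 0.68 (COL6A3) and 0.62 (COL26A1) in SK-N-BE(2) overexpression, and to -1.99 (COL3A1) and -0.85 (COL4A1) in SH-SY5Y overexpression. Both COL19A1 reversals involve the SK-N-BE(2) overexpression control, the only group through which that gene was kept. Uncalled ones reversed too, among them -0.05 (COL18A1) and 0.09 (COL1A1) in SK-N-BE(2) overexpression, and -2.17 (COL5A1), -0.98 (COL6A3), -0.55 (COL23A1), -0.17 (COL6A6) and -0.06 (COL9A2) in SH-SY5Y overexpression. Uncalled changes near 0 reversed for COL18A1 in SH-SY5Y overexpression, to 0.02 with TPM, 0.01 with median-of-ratios scaling, and within -0.03 to 0.03 with a library left out. With a library left out, COL9A2 ranged from -0.01 to 0.08 and COL7A1 reached 0.00 in SH-SY5Y overexpression, and COL1A1 0.00 in SK-N-BE(2) overexpression. The cause of each reversal was not tested.

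Libraries share replicate numbers, but their deviations correlated by -0.08 to 0.44 between same-numbered libraries, above 0.1 in 7 of 36 pairs, and a library correlated best with its own number in 31 of 72 comparisons with another group, so the numbers were not taken as pairing. With the replicate number as a block, 20, 20, 12 and 9 members were called in the 4 construct comparisons, 15 and 12 in the differences between lines, 12 and 18 between the controls of a line, and 19 between lines. Without read counts, the precision of low members cannot be set apart from depth.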
